A study of Homo sapiens with 7 samples.

Results

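Libraries of HUES66 cells were compared by which part of RBFOX2 had shifted most: its first exon in G3 and G5, or an internal exon edge in G11, G12, G13 and G14. These 6 libraries came from a series of 7, whose remaining library was a control. HUES66 is an established human embryonic stem cell line, and polyadenylated RNA was read as full-length cDNA on the PacBio Revio system. The control was labelled WT, and the other 6 were labelled RBFOX2 isoform KD, for Cas13d, an RNA-guided nuclease that cuts RNA. Their RBFOX2 ids were 178147 and 178149 in G3 and G5 and 178136, 178135, 178145 and 178146 from G11 to G14, and the labels do not say which isoform an id denotes. All 7, the control included, carried the label piggyBac, received doxycycline at 1 µg/ml and were taken at 24 h. There was 1 library per label, so the libraries of a side are not replicates of each other: the spread within a side holds both the culture and the RBFOX2 id. Of 14294 genes in the deposited table, 7878 had a mean level of at least 5 TPM over the 7 libraries, and 7877 of these were compared, leaving out RBFOX2.

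RBFOX2 encodes an RNA-binding protein that promotes or represses inclusion of nearby exons, depending on where in the flanking introns it binds. Alternative promoters give the transcript different first exons, and so different amino ends of the protein. Further inside the transcript, neighbouring acceptor sites (the splice sites at the start of an exon) make 2 exons longer or shorter by a few bases. RBFOX proteins are known in stem cells and in differentiating tissues for splicing of cytoskeletal, adhesion and signalling transcripts.

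The sequences below show the differences that placed the libraries on a side. RBFOX2 lies on the minus strand at chr22:35738736-36028425 (GRCh38, GENCODE 29). The proximal first exon (chr22:35840192-35840284 in ENST00000416721) ends in a stretch that opens with a start codon, here in capitals, and the distal first exon (chr22:36028240-36028425 in ENST00000438146) ends in another coding stretch. Capitals in the other pair of comparisons mark the bases present only in the longer form. The 3-base choice gave an exon of 144 or 147 nt ending in the same place (chr22:35781600-35781746 in the longer form). The 12-base choice gave an exon of 133 or 145 nt (chr22:35759888-35760032 in the longer form).
Proximal first exon, end: ATGgagaaaaagaaaatggtaactcag
Distal first exon, end: gcggccgacggtggcggcgggatgcag
144-nt form: aatggatctcttacgacagaaggtggagca
147-nt form: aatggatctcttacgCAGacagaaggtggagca
133-nt form: acattcctttaatcattcctggcttccctt
145-nt form: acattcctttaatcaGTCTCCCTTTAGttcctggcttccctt

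The libraries were chosen by these RBFOX2 shares, which are therefore given as a description, with no test. The proximal first exon held 31.4% of proximal and distal reads in G3 and 96.3% in G5, against 75.5% in the control, a shift of -44.2 points and of 20.8 points. It held between 77.3% and 86.8% in the 4 internal-exon libraries. The 133-nt form held 95.4% of reads in G11 and 36.1% in G12, against 63.3% in the control. The 144-nt form held 75.8% in G13 and 99.1% in G14, against 90.8% in the control. In these RBFOX2 shares G14 was the library nearest the control, its largest shift being 8.28 points. In G3 the shares at the internal edges were lower too, with 43.1% of the 133-nt form and 63.1% of the 144-nt form. Each annotated transcript joins a given first exon to given internal forms, so this cannot be told apart from the first-exon shift. The RBFOX2 total was 42.1 and 96.8 TPM in G3 and G5 and 82.9, 88.5, 55.9 and 106 from G11 to G14, against 107 in the control. The 2 sides therefore overlapped in the amount of RBFOX2, and each held 1 library with a total well below the control.

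**Figure D1:**
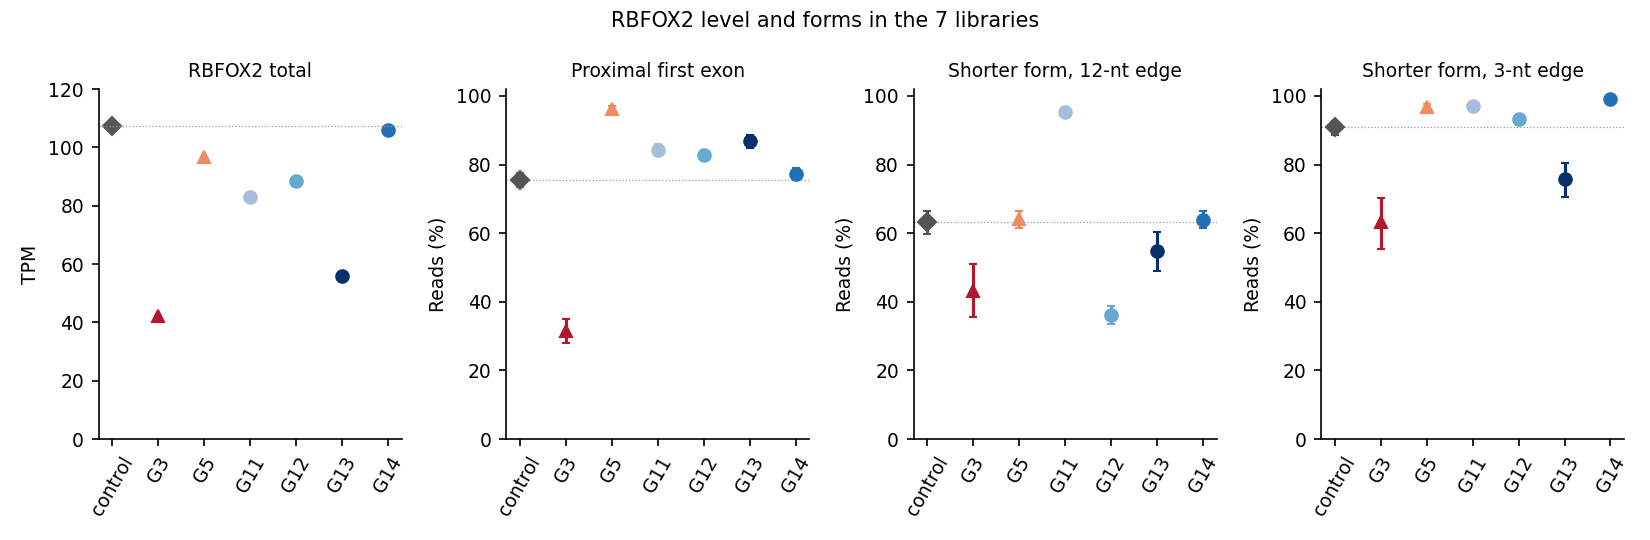
RBFOX2 in each library: total level in TPM, and the percentage of reads with the proximal first exon, the 133-nt form (12-nt edge) and the 144-nt form (3-nt edge). Shares of the 133-nt and 144-nt forms rest on annotated transcripts alone. Bars are 95% Wilson intervals, which cover counting error only, the dotted line is the control, triangles are the first-exon side and circles the internal-exon side; G3 stands at 31.4% for the proximal exon and G5 at 96.3%.

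Depth ranged from 17848097 to 26678536 reads in the 6 libraries, and all 7 RNA samples had an integrity number between 8.7 and 9.7 per the labels. Of 14 stem cell markers 13 were in the table. DPPA4 was at 745 TPM or more and ZFP42 at 108 TPM or more in each library, while UTF1 was at most 0.536 TPM and at 0 in G5, G11, G13 and G14. NANOG was at 3.49 to 5.54 TPM in the 6 libraries, below the 10.00 of the control, and POU5F1 at 377 to 588 TPM, below 915. Of 10 mesendoderm markers 6 were in the table, with a summed level of 0.56 to 0.825 TPM on the first-exon side, 0.487 to 0.864 on the internal-exon side and 1.25 in the control. GATA3 and KRT7, of 6 trophoblast markers, summed to 1.65 to 2.41 TPM on the first-exon side and 0.937 to 1.63 on the internal-exon side. Of 8 neuroectoderm markers OTX2 and NES were in the table, with a sum of 118 to 134 TPM on the first-exon side, 101 to 140 on the internal-exon side and 109.9 in the control. Nearly all of it was OTX2, which stem cells of this kind are also known to express, and NES was at 0 in 5 of the 7 libraries.

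Values of the internal-exon libraries are given in the order G11, G12, G13, G14. Of the 7877 genes, 851 (10.8%) were higher and 276 (3.5%) lower on the first-exon side at an adjusted p under 0.05 (edgeR quasi-likelihood test). Genes called higher included 6 of 17 cytoskeletal genes, 5 of 13 collagen, laminin and integrin genes, 4 of 10 factors of nonsense-mediated decay and 26 of 132 solute carriers. Genes called lower included 4 of 34 proteasome and 7 of 74 mitochondrial ribosomal genes, and IGFBP2 fell most. Falls were smaller than rises: 545 of the higher genes but only 58 of the lower genes differed at least 2-fold. The sides did not overlap in 848 of the higher and in all 276 of the lower genes. Over all genes, 2716 (34.5%) did not overlap with the first-exon side higher, and 1037 (13.2%) did not with that side lower. In bulk RNA, fewer cells of a type and less RNA per cell cannot be told apart.

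These calls needed G3. A fit without it leaves G5 alone against the internal-exon libraries, so a lost call does not by itself show that the difference came from G3. Without G3, edgeR called 0 genes, with 1006 at an unadjusted p under 0.05, while DESeq2 called 12 higher and 1 lower and limma 1 higher and 0 lower. Leaving out other libraries changed the counts too: 304 higher and 20 lower without G12, 593 and 75 without G13, 503 and 186 without G14, and 839 and 479 without G11. G3 stood farther from the internal-exon libraries than G5 did in 830 of the 851 higher genes, by a median of 0.46 log2 units over G5. The median gap between the sides was 0.61 log2 units in these genes. In the lower genes G3 stood farther in 246 of 276, with a median of -0.27 log2 units for G3 minus G5 and a gap of -0.30. The count in each direction also moved with the method. It was 1192 higher and 808 lower with DESeq2, 1265 and 172 with library totals in place of TMM scaling, and 831 and 703 after removal of a surface of transcript length and GC content. Library totals moved the median over all genes from -0.02 to 0.12 on the log2 scale.

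The control was not midway between the sides. In 833 of the 851 higher genes it lay above every internal-exon library, in 272 it lay between G3 and G5, and in 545 it lay between the sides. The median log2 ratio to the control in these genes was 0.55 and 0.10 in G3 and G5, but -0.61, -0.99, -1.52 and -1.03 from G11 to G14. So for the genes called higher, the internal-exon libraries and not G5 had moved most from the control. In the 276 lower genes the medians were -0.14 and 0.15 in G3 and G5 and 0.46, 0.62, 0.72 and 0.71 from G11 to G14.

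Of the 621 higher genes with a mean of at least 10 TPM and no overlap, COL18A1, FLNA and PRRC2A had the largest differences. They were close to absent from the internal-exon libraries. Their means over the 7 libraries, 18.2, 14.1 and 10.4 TPM, owed most to G3. Without G3 none of them would reach 10 TPM, and COL18A1 and PRRC2A would not reach 5 TPM. So G3 also carried them past the filters. FLNA (chrX:154348524-154374638, minus strand) encodes filamin A, which cross-links actin filaments. It stood at 56.8 and 17.2 TPM in G3 and G5 and 0.192, 0.300, 0.0439 and 0.0477 from G11 to G14, and at 24.0 in the control. The internal-exon values come from 4, 8, 1 and 1 reads, against 1013 and 438 in G3 and G5, and the sides lay far apart. As a share of all reads, FLNA reads differed 218-fold between the sides (exact 95% interval 130 to 401, counting error only), and the log2 difference was 7.72 ± 0.60 (SE; edgeR adjusted p = 0.00348). Without G3 the FLNA difference was 6.59 with an adjusted p = 0.0684 in edgeR, 3.48e-14 in DESeq2 and 0.0357 in limma.

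COL18A1 (chr21:45405137-45513720, plus strand) encodes a collagen of basement membranes. It was at 98.0 TPM in G3 and 6.40 in G5, at 0.144, 0.412, 0.0439 and 0.191 from G11 to G14, and at 22.4 in the control. G3 and G5 differed more from each other here than in FLNA, with the control between them. COL18A1 reads as a share of all reads differed 212-fold (interval 135 to 353; edgeR log2 difference 7.79 ± 1.01 SE, adjusted p = 0.0232). Without G3 the log2 difference of COL18A1 was 4.75 (edgeR adjusted p = 0.373). PRRC2A (chr6:31620720-31637771, plus strand), which encodes a proline-rich RNA-binding protein, was at 46.1 and 7.35 TPM in G3 and G5 and 0.192, 0.225, 0 and 0.286 from G11 to G14. The control held 18.4 TPM, so PRRC2A too was lower in G5 than in the control and lower still in all 4 internal-exon libraries. Its log2 difference was 7.05, and 5.17 without G3 (edgeR adjusted p = 0.355).

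The next genes in size were low rather than absent on the internal-exon side. SLC7A5 (chr16:87830023-87869488) encodes the light chain of a transporter of large neutral amino acids. It stood at 315 and 162 TPM in G3 and G5 and 41.5, 25.4, 6.67 and 15.5 from G11 to G14, with 160 in the control. G5 lay close to the control and G13 was the lowest library, as it was in AKT2, RAVER1, AP2A1 and TMEM184B too. The log2 difference of SLC7A5 was 3.30 ± 0.53 (SE; edgeR adjusted p = 0.0232). RAVER1, a partner of the splicing repressor PTBP1, was at 149 TPM in G3 and 79.6 in G5 but 1.67 to 16.9 on the internal-exon side. AKT2, a kinase of insulin signalling, was at 104 and 42.8 TPM against 1.49 to 7.44. AP2A1, a subunit of the endocytic clathrin adaptor, was at 64.0 and 35.2 TPM against 0.658 to 8.83. SFPQ, a splicing factor of nuclear paraspeckles, differed from this order: it was at 79.9 TPM in G3 but 4.83 in G5, little above the 4.01 of G14. Its mean of 14.6 TPM over the 7 libraries also owed most to G3, and would not reach 5 TPM without it. The log2 difference of SFPQ was 4.60, and 1.46 without G3 (edgeR adjusted p = 0.473). The others of the 12 were TLCD3B, COL26A1, PALD1 and TMEM184B, with log2 differences of 3.28 to 3.67. Without G3, TLCD3B, COL26A1 and PALD1 would also fall below a mean of 10 TPM.

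**Figure D2:**
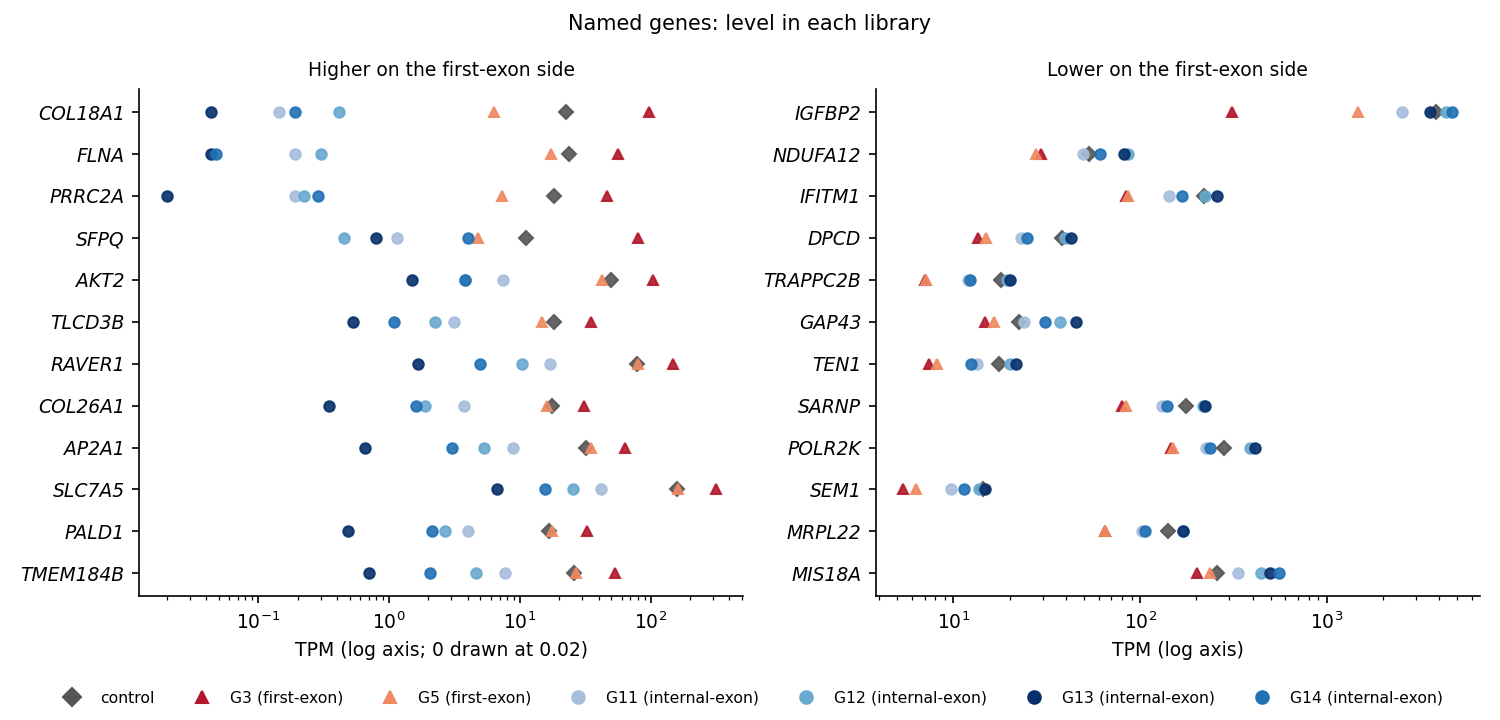
TPM of the 12 genes with the largest differences in each direction, in each library, on a log axis. Triangles are G3 and G5, circles the 4 internal-exon libraries and diamonds the control; FLNA spans 0.0439 TPM in G13 to 56.8 in G3, while the genes on the right differ by far less, IGFBP2 excepted.

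IGFBP2 was the gene with the largest fall on the first-exon side. It lies at chr2:216632828-216664436 and encodes a secreted protein that binds insulin-like growth factors. Its level was 311 TPM in G3 and 1475 in G5, against 2538, 4363, 3592 and 4701 from G11 to G14 and 3823 in the control. G3 was lowest, G5 lay between it and the 4 others, and the sides did not overlap. The log2 difference was -2.23 ± 0.57 (SE; edgeR adjusted p = 0.0366), and -1.55 without G3 (adjusted p = 0.374). The other lower genes named here had differences of -1.20 to -1.44. Without G3 these were -1.14 to -1.54, so they changed little in size. NDUFA12, a subunit of respiratory complex I, was at 29.4 and 27.5 TPM in G3 and G5 against 49.2 to 85.9 on the internal-exon side, with 53.3 in the control. IFITM1, an interferon-induced membrane protein, was at 84.0 and 85.6 TPM against 143 to 258. SARNP, which takes part in mRNA export, was at 80.1 and 84.5 TPM against 131 to 223. In these 3 genes G3 and G5 were nearly equal, unlike IGFBP2. MIS18A, needed for loading of the centromeric histone, was at 202 and 236 TPM against 335 to 553. The rest were DPCD, TRAPPC2B, GAP43, TEN1, POLR2K, SEM1 and MRPL22. TRAPPC2B is a processed copy of TRAPPC2, so its reads are uncertain.

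Transcript length and GC content moved with the calls. The 851 higher genes had a median GC content of 58.6% and a median length of 3113 nt, against 47.9% and 2590 nt over all genes. The 276 lower genes had 44.4% and 2063 nt. Among the quintile of genes richest in GC, 29.6% were higher and 1.08% lower, and among the poorest quintile 2.10% were higher and 5.52% lower. Genes in both the GC-richest and the longest tertile numbered 425, of which 56.0% were higher. In the GC-richest quintile the median log2 ratio to the control was 0.21 and -0.10 in G3 and G5 and -0.55, -0.62, -0.88 and -0.90 from G11 to G14. Only G3 of the 6 libraries lay above the control there. In the shortest quintile the median ratio of all 6 libraries was below 0, with G12 nearest the control at -0.37 and G14 farthest from it, and G3 and G5 lay between these.

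**Figure D3:**
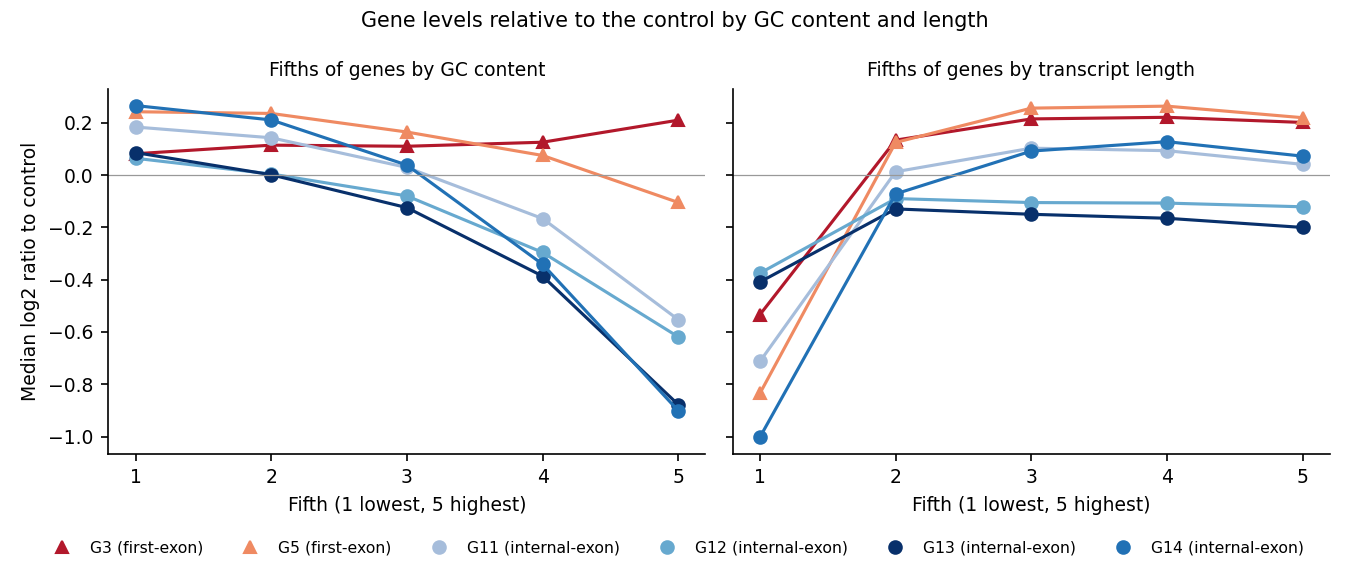
Median log2 ratio of gene level to the control, for quintiles of genes by GC content (left) and by transcript length (right), in each of the 6 libraries. In the GC-richest quintile the lines spread from 0.21 in G3 to -0.90 in G14, and the first-exon side lies above the internal-exon side.

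A surface of length and GC content accounted for 37.6% of the variance of gene deviations in G3, 47.9% in G5 and between 14.5% and 50.3% in the internal-exon libraries. After its removal, 688 of the 1127 genes called in either direction (14.3% of all) were called again in the same direction, and 48 had the opposite sign. The 12 higher and 12 lower genes above were all among those still called in the same direction. Most of their log2 differences shrank, as in FLNA (7.72 to 4.75), SLC7A5 (3.30 to 1.81) and NDUFA12 (-1.44 to -0.95). That of SFPQ barely changed, and that of IGFBP2 alone grew, from -2.23 to -2.49. What part length and GC content had in the remaining calls was not tested. As examples, the 60 coding bases richest in GC are shown for the most abundant annotated isoform of 2 higher genes (FLNA, PRRC2A) and 2 lower genes (IGFBP2, NDUFA12), from GENCODE 29. They hold 85.0%, 78.3%, 88.3% and 66.7% G or C. No part is marked. The IGFBP2 stretch is richer than that of 98.6% of genes. The median of such stretches was 78.3% in the higher genes, 66.7% in the lower genes and 70.0% in genes not called.
FLNA: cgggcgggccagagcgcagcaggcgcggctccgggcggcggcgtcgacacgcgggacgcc
PRRC2A: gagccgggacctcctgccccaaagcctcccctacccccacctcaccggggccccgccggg
IGFBP2: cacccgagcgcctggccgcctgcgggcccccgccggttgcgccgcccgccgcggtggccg
NDUFA12: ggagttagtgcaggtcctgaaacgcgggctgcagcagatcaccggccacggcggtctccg

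Gene lists were then read against the background of 10.8% higher and 3.5% lower and an all-gene median of -0.02 log2 units. Over all 7877 genes, DESeq2 called 1192 higher and 808 lower, and limma 1210 and 203. In edgeR 2800 genes had an unadjusted p under 0.05 in either direction, and 4086 differences were negative. RBFOX proteins are known for splicing of cytoskeletal transcripts, which gene levels do not measure. Of 17 cytoskeletal genes tested 6 were higher and 0 lower in edgeR, with a median of 0.19 (0.09 after removal of the surface). Lower genes of the list numbered 1 at an unadjusted p under 0.05, 1 in DESeq2 and 0 in limma. MYH9, the heavy chain of non-muscle myosin, was at 40.2 and 25.9 TPM in G3 and G5 and 6.62, 5.55, 2.41 and 5.11 from G11 to G14. The control held 25.7 TPM, close to G5 and above all 4 internal-exon libraries. ACTB, which encodes beta-actin, was higher by 0.71 ± 0.17 (SE; edgeR adjusted p = 0.0308), from 10980 to 15997 TPM on the internal-exon side to 20321 in G5 and 25917 in G3. TUBA1B, TUBB and TUBB4B, which encode tubulins, and FLNA made up the 6. ACTB and the tubulin genes have near-identical copies, so their reads are uncertain.

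Among 13 collagen, laminin and integrin genes 5 were higher and 0 lower in edgeR, and all 5 were collagens: COL18A1, COL26A1, COL6A1, COL1A1 and COL9A1. Of the list, 1 gene was lower at an unadjusted p under 0.05, as in DESeq2, and 0 in limma. The list's median was 0.80, but 0.07 after removal of the surface. On log2(TPM + 0.5) it was 0.83, and 0.45 without G3. COL1A1, a fibrillar collagen chain, was at 30.3 TPM in G3 and 16.7 in G5 against 1.58 to 6.82 TPM. Of 132 solute carriers 26 were higher and 3 lower, with a median of 0.15. SLC1A5, a glutamine transporter, was at 419 and 313 TPM in G3 and G5 and 172, 111, 78.7 and 96.3 from G11 to G14, with 298 in the control. SLC2A1, the widespread glucose transporter, went the other way, with 418 TPM in G3 and 589 in G5 against 714 to 964 TPM.

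Of 10 factors of nonsense-mediated decay, which degrades mRNAs with an early stop codon, 4 were higher and 0 lower in edgeR (3 lower at an unadjusted p under 0.05, 2 in DESeq2 and 0 in limma). SMG5, an adaptor that joins phosphorylated UPF1 to mRNA decay, was at 70.7 and 63.5 TPM in G3 and G5 and 24.9, 15.03, 3.64 and 9.83 from G11 to G14. Here G3 and G5 were close to each other and the internal-exon side was spread over 3.64 to 24.9 TPM (edgeR log2 difference 2.21 ± 0.51 SE, adjusted p = 0.0299). UPF3B, SMG8 and CASC3 were the other 3, and without G3 the mean of UPF3B would not reach 5 TPM. Of 53 translation factors 7 were higher and 0 lower in edgeR, though the median over the list was -0.14. On log2(TPM + 0.5), with no TMM scaling, the list median was 0.05, beside 0.13 over all genes. In edgeR 8 were lower at an unadjusted p under 0.05, while DESeq2 called 6 lower and limma 0. EIF4G1, the scaffold of the cap-binding complex, was at 318 TPM in G3 and 218 in G5 against 43.6 to 124 TPM, and EEF2, the translocation factor, was at 271 and 220 against 75.2 to 144 TPM.

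**Figure D4:**
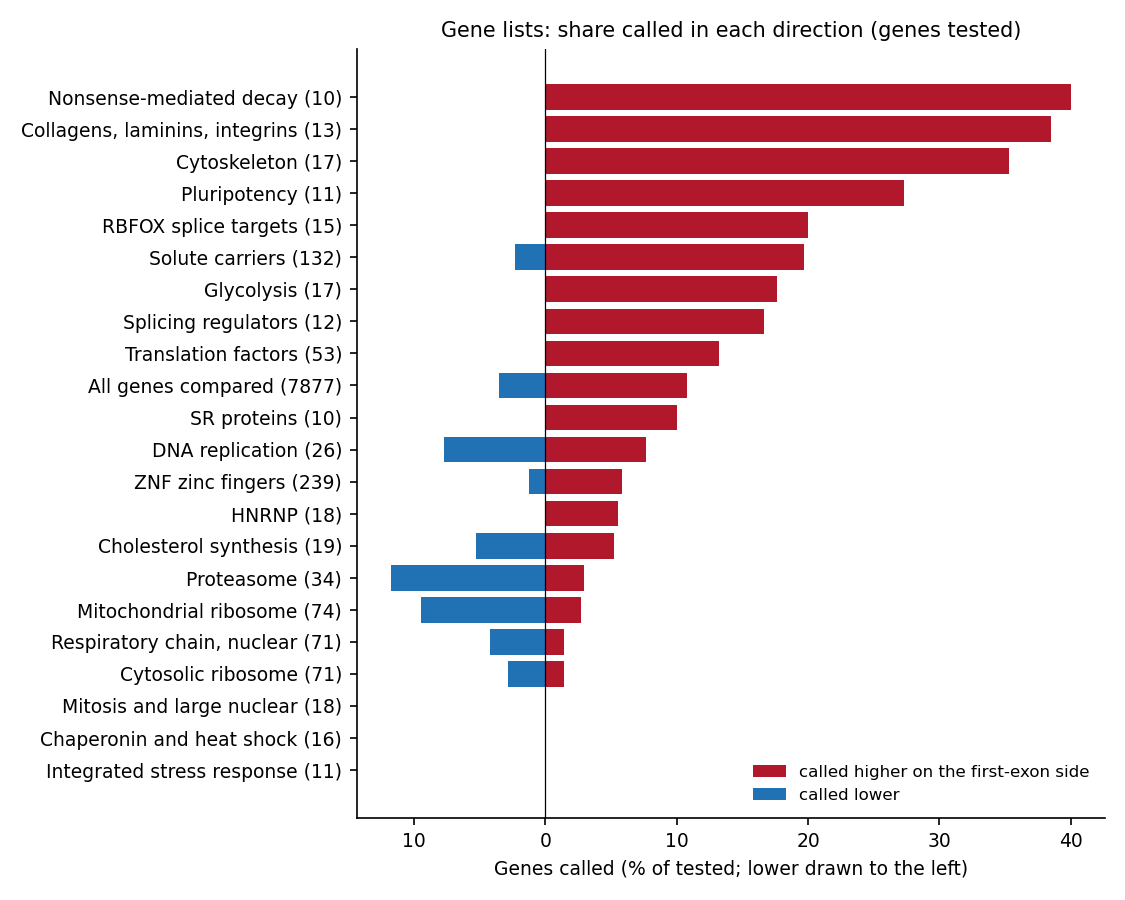
Percentage of tested genes called higher (right) or lower (left) on the first-exon side in each list of at least 10 tested genes, with the number tested in brackets. All genes compared stand at 10.8% and 3.5%; the lists were chosen with earlier results of these data known.

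Lists of housekeeping genes with short mRNAs had negative medians. DESeq2 called more of their members lower than edgeR did: 9 proteasome, 17 mitochondrial ribosomal and 16 respiratory chain genes. It also called more genes lower over all 7877, with 808 against 276 in edgeR. Of 34 proteasome genes 4 were lower and 1 higher, and 31 of the 34 differences were negative, with a median of -0.41. PSMA2, a subunit of the proteasome core, was at 490 TPM in G3 and 606 in G5 against 787 to 1300, with 1287 in the control. Of 74 mitochondrial ribosomal genes 7 were lower and 2 higher, with a median of -0.33. MRPS30, a protein of that ribosome, was at 253 TPM in G3 and 319 in G5 against 432 to 502, while the control, at 247, lay with G3. Of 71 nuclear-encoded respiratory chain genes 3 were lower, a share near the 3.5% of all genes, and 1 was higher, with a median of -0.41. ATP5F1B, the catalytic beta subunit of ATP synthase, was the higher one, at 1184 and 1001 TPM against 464 to 684. The medians of these 3 lists after removal of the surface were -0.23, -0.09 and -0.11. Their median lengths were 1559, 1448 and 1050 nt. Of 71 cytosolic ribosomal genes 2 were lower and 1 higher, and their median changed sign, from -0.11 to 0.19, when the surface was removed. It was 0.05 on log2(TPM + 0.5), where the median over all genes was 0.13.

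Of 11 pluripotency genes tested 3 were higher and 0 lower in edgeR. Lower genes numbered 1 at an unadjusted p under 0.05, 1 in DESeq2 and 0 in limma. The differences were positive in 7 and negative in 4, with a median of 0.05. DNMT3B, the de novo DNA methyltransferase abundant in stem cells, was at 68.0 and 48.4 TPM in G3 and G5 and 28.4, 22.6, 13.4 and 24.0 from G11 to G14, with 44.3 in the control. Both first-exon libraries stood above the control and all internal-exon libraries below it (edgeR log2 difference 1.26 ± 0.25 SE, adjusted p = 0.0239). PODXL, a cell surface sialomucin, had the same order, with 84.5 and 56.3 TPM against 15.3 to 33.9 and 48.7 in the control. LIN28A, which blocks let-7 maturation, was at 179 and 182 TPM against 73.2 to 138 TPM (adjusted p = 0.0492, edgeR). POU5F1 was at 588 and 557 TPM against 377 to 566 and NANOG at 4.82 and 5.54 against 3.48 to 4.51, and neither was called. Both have expressed pseudogenes, so their reads are uncertain. TDGF1 was lower without overlap, at 43.8 and 44.8 TPM in G3 and G5 against 47.9 to 59.7, and was not called.

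Isoform usage gave a readout of splicing and of transcript ends that the choice of sides did not use. Of 27660 isoforms in 5958 genes, 779 (2.82%) differed in their share of the gene between the sides (edgeR diffSpliceDGE, adjusted p under 0.05), in 557 genes (9.35%). A higher share on the first-exon side was found for 243 (0.879%) and a lower share for 536 (1.94%). The 5′ end lay at least 1000 bases downstream of the gene's most upstream tested isoform in 425 of the 536 with a lower share, or 79.3%. This was so for 6.58% of those with a higher share and 12.6% of all tested. The 3′ end lay at least 1000 bases upstream of the most downstream one in 44.9% of those with a higher share, 19.0% of those with a lower share and 17.0% of all. Annotated transcripts made up 34.2% of isoforms with a higher share, 8.02% of those with a lower share and 44.6% of all. Without G3, 2 isoforms were called, with 1313 at an unadjusted p under 0.05. Without G12 there were 422 and without G13 410.

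TOP1, which encodes DNA topoisomerase I, shows both ends. Its full-length transcript ENST00000361337 (chr20:41028812-41124485, plus strand) held 38.5% and 29.97% of TOP1 reads in G3 and G5, and 15.1%, 9.24%, 7.88% and 11.95% from G11 to G14, with 24.4% in the control. An unannotated isoform covering the 3′ end alone (chr20:41112780-41124484) held 17.8% and 32.0% in G3 and G5 against 51.3% to 57.6% on the internal-exon side. Another, which ended early (chr20:41028812-41098337), held 29.6% and 16.84% against 5.84% to 13.7%. The TOP1 total did not differ past the threshold (edgeR log2 difference -0.03 ± 0.17 SE, adjusted p = 0.909). In DNMT3B an unannotated isoform whose 5′ end lay inside the gene (chr20:32780315-32809358, gene start 32762385) held 10.5% in G3 and 16.7% in G5 against 29.6% to 49.7%, with 13.4% in the control.

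**Figure D5:**
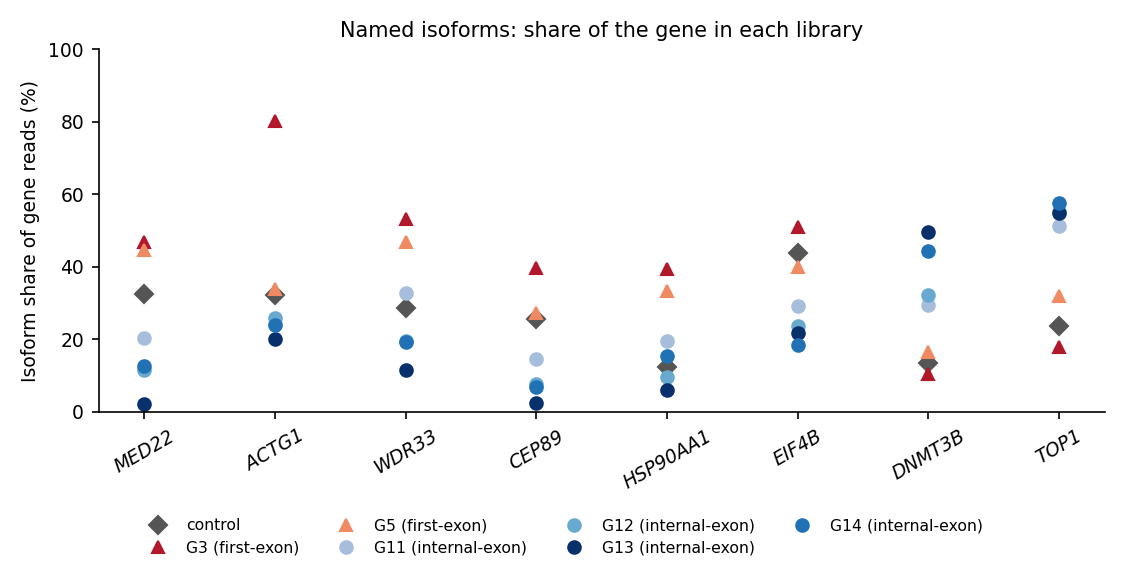
Share of gene reads, in percent, held by 8 isoforms with the largest share differences, 1 per gene, in each library. The shares of G3 and G5 (triangles) do not overlap those of the internal-exon libraries (circles); the ACTG1 isoform stands apart in G3 at 80.2%.

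The 6 other isoforms with the largest differences were annotated and had a higher share on the first-exon side. MED22 encodes a subunit of the Mediator complex, and its 3867-nt transcript held 46.8% and 44.6% of reads in G3 and G5 and 20.4%, 11.5%, 2.23% and 12.7% from G11 to G14 (edgeR adjusted p = 0.0213). The control, at 32.4%, lay between the sides. The 9471-nt transcript of WDR33, a factor of mRNA 3′ end formation, held 53.2% and 46.8% against 11.5% to 32.9%. The annotated HSP90AA1 transcript ENST00000216281, for a cytosolic chaperone, held 39.5% and 33.4% against 5.95% to 19.6%, with 12.4% in the control. The EIF4B transcript ENST00000262056, for a helicase cofactor of translation, held 50.9% and 40.04% against 18.6% to 29.1%. For CEP89, a centriole protein, a transcript confined to the 5′ end of the gene (chr19:32968909-32971986 of 32875925 to 32971991, minus strand) held 39.8% and 27.3% against 2.39% to 14.7%. ACTG1, which encodes gamma-actin, differed: its transcript ENST00000573283 held 80.2% in G3 but 33.9% in G5, near the control at 32.4% and the 20.2% to 25.8% of the internal-exon side.

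Of 18 genes studied as RBFOX targets 15 were tested with 86 isoforms, and 1 isoform was called, beside 2.82% of all isoforms and 9.35% of all genes. Inclusion of single exons was not measured. The isoform called was in INF2, which encodes a formin that nucleates actin filaments. Without G3 the mean of that isoform would not reach the 1 TPM needed for testing, so G3 also carried it past the filter. The INF2 transcript ENST00000330634 held 15.1% and 5.21% of reads in G3 and G5, 0.190% and 0.595% in G11 and G12 and 0% in both G13 and G14, with 6.64% in the control (edgeR adjusted p = 0.000714). At the gene level 3 of the 15 were higher and 0 lower in edgeR, beside 10.8% and 3.5% of all genes. Members that were lower numbered 0 at an unadjusted p under 0.05, in DESeq2 and in limma. Over all 7877 genes DESeq2 called 808 lower and limma 203. CLSTN1, a calsyntenin, was at 41.0 TPM in G3 and 17.2 in G5 against 0.790 to 4.99. CTTN, the actin-binding protein cortactin, was at 45.8 and 39.6 TPM against 19.5 to 27.3, and INF2 was the third.

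Libraries of a side were not all nearest to each other. The SD over genes of the log2 ratio between a pair of libraries was 0.41 for G3 and G5, but 0.35 for G5 and G11, across the sides. Over the 8 pairs across the sides it ranged from 0.35 to 0.99 with a median of 0.71, and over the 6 pairs within the internal-exon side from 0.31 to 0.51 with a median of 0.41. G3 and G13, the libraries with the lowest RBFOX2 totals, were the pair farthest apart. With the surface removed, the median across the sides was 0.55 and G3 and G5 stood at 0.36. Against the control the SD was lowest in G3 and highest in G14, at 0.51 and 0.85. With the surface removed these were 0.40 and 0.66.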

How the data were processed

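Per the file headers, the authors deposited full-length read counts and TPM values for each of 386982 isoforms in 7 libraries; every listed isoform had a read in the control. Per the labels' protocols, cDNA was joined into 8-fold arrays, and per the submitters' processing notes minimap2 2.17 and GRCh38 were used. How reads were assigned to isoforms, with which annotation and strand rule, is not given in the sources used here. The deposited TPM equalled count over library total to within 0.01, with no length term, so levels of different genes are not per length. Empty cells were read as 0, and counts were summed by Ensembl gene stem.

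The sides, members, lists and alternatives were chosen with earlier results of these data known. Counts of G3 and G5 were tested against G11 to G14 with edgeR 4.0.16 (TMM, quasi-likelihood, Benjamini-Hochberg over 7877 genes; R 4.3.3), after tests on simulated data; an SE is the log2 difference over the square root of F. With 1 library per label, p-values measure the spread between libraries of a side. Isoform usage was tested with diffSpliceDGE on isoforms with a mean of at least 1 TPM. Alternatives used DESeq2 1.42.0, limma 3.58.1 on log2(TPM + 0.5), other filters, removal of a per-library surface quadratic in log2 length and GC content, and left-out libraries. The genes named are the 12 largest differences each way among called genes with a mean of at least 10 TPM and no overlap, and list members; the isoforms are the 8 largest share differences, in genes of at least 20 TPM. GENCODE 29 gave length and GC content for 7872 of 7878 genes, as means over isoforms weighted by TPM. Depth was 16801851 reads in the control; 3 reads equal 0.112 to 0.179 TPM, and intervals cover counting error only. Spike-ins were not used here.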

Additional observations from a re-analysis of the deposited data

How the results depend on the processing

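Against 851 genes called higher and 276 lower on the first-exon side, no filter on low counts gave 1475 and 566 and a minimum of 20 TPM gave 313 and 72. Genes called lower numbered 172 with library totals, 808 with DESeq2 and 703 with the length and GC surface removed. Leaving out 1 library at a time gave 0 to 839 genes higher and 0 to 479 lower, the lowest without G3; without G3 and G13 there were 144 and 0. In alternatives chosen after seeing the data, leaving out G3 gave 12 and 1 with DESeq2, 1 and 0 with limma on log2(TPM + 0.5), and 0 and 0 with the surface removed, where 1229 genes had an unadjusted p under 0.05. Isoforms called numbered 779, 287 with a minimum of 5 TPM per isoform, 2 to 835 with 1 library left out, and 2 without G3 and G13. Of the 24 named genes, all kept their direction in every alternative that tested them. All 24 missed the threshold without G3 in edgeR, where COL18A1, FLNA, PRRC2A, AKT2 and IGFBP2 passed it in DESeq2. In edgeR 9 of the 24 also missed it without G5, 9 without G12, 1 each without G13 and G14, and 13 without G3 and G13. Of the 8 named isoforms, all missed it without G3, 7 without G12, 5 without G13, 5 without G14, 4 without G5 and 2 without G11. No paired analysis was possible because each label has 1 library, so the sides share no replicate pairs.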

Other observations

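Members of the DNA replication list went both ways. Of 26 tested, 2 were higher and 2 lower on the first-exon side, beside 10.8% and 3.5% of all genes. CDT1, which loads the replicative helicase, was at 51.4 and 16.0 TPM in G3 and G5 and 7.30, 4.46, 2.19 and 5.82 from G11 to G14, with 25.0 in the control. POLD1, the catalytic subunit of polymerase delta, was at 138 and 105 TPM on the first-exon side against 12.8 to 50.6. MCM6, a subunit of that helicase, was lower, with 122 TPM in G3 and 202 in G5 against 229 to 308, and RFC2, a subunit of the clamp loader, was at 527 and 609 TPM against 761 to 945. The GC content was 64.9% for CDT1 and 64.8% for POLD1 but 43.1% for MCM6 and 53.6% for RFC2, and its part in this division was not tested.

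Of 239 ZNF zinc finger genes 14 were higher and 3 lower, smaller shares than the 10.8% and 3.5% of all genes. The median was near 0 (0.14 on log2(TPM + 0.5), with no TMM scaling, where all genes stood at 0.13). ZNF687 had the largest difference, with 24.0 and 13.7 TPM in G3 and G5 and 2.02, 1.05, 0.0439 and 0.334 from G11 to G14, and 13.3 in the control. Among 18 genes of mitosis and large nuclear proteins edgeR called 0, and 16 of the 18 differences were negative, beside 4086 of 7877 over all genes. At an unadjusted p under 0.05 in edgeR 6 were lower, beside 2800 of the 7877 in either direction. DESeq2 called 5 lower and limma 1, beside 808 and 203 of all genes. PHLDA3, a p53 target, was at 79.8 TPM in G3 but 10.1 in G5, within the range of 5.40 to 13.3 TPM on the internal-exon side, so its call rested on G3.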
